A study of Mus musculus with 7 samples.

Results

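The response of BRG1 binding to PMA and ionomycin in Th2 cells was followed by chromatin immunoprecipitation and sequencing (ChIP-seq), with 3 of the 7 libraries of the series: stimulated Th2, resting Th2 and input. The members were taken by their labels, not by their reads. Both Th2 libraries came from naive CD4+CD62L+ T cells of Balb/C mice aged 4 to 6 weeks, taken from spleen and lymph nodes at 95% purity. The naive cells were activated on plates coated with anti-CD3 at 1 μg/ml and anti-CD28 at 2 μg/ml, with IL-4 at 10 ng/ml and anti-IFNγ at 10 μg/ml, and IL-2 at 100 U/ml followed after 24 h. Stimulated Th2 cells were then treated for 1.5 h with PMA (50 ng/ml) together with ionomycin (500 ng/ml), and resting Th2 cells were not. The input was DNA of pooled CD4+ T helper cells without immunoprecipitation. Th1 cells, cultured with IL-12 at 1 ng/ml and anti-IL-4 at 10 μg/ml in place of the Th2 conditions, were taken through the same stimulation and are given beside Th2. The libraries of stimulated Th17 and of naive cells are quoted only for their levels in the Th2 regions. All cultured cells went through 1 round of culture, so the rest state is that of recently activated cells expanded in IL-2, and a culture can hold cells that did not become Th2.

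BRG1 drives the SWI/SNF (BAF) complex as its ATPase, and this complex moves and evicts nucleosomes and so opens promoters and distal elements to transcription factors. PMA activates protein kinase C and its downstream MAP kinase and NF-κB pathways, and ionomycin raises intracellular calcium and thereby activates calcineurin and NFAT. The combination replaces signalling through the T cell receptor and makes Th2 cells transcribe cytokine genes such as Il4, Il5 and Il13. All positions below are on mm9. Because the gene table used here is on GRCm38, no gene, promoter or sequence is attached to a region, and the Th2 identity of the cells could not be checked at marker genes.

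Each group had 1 library. Every difference below is therefore one between libraries, with no replicate check and no p-value. Intervals are 95% intervals that cover counting error only, since 1 library a side gives no measure of variation between libraries. Reads that are PCR copies of 1 molecule were not marked as such. The intervals are not adjusted for the number of regions, so some regions would pass by counting error alone. The deposited lists held 4830623 aligned reads for stimulated Th2, 2114977 for resting Th2 and 3807367 for input. After 1 read was kept per 5′ end and strand and chromosome Y was left out, 4261900, 1340208 and 3531867 distinct reads remained in that order. Levels are given as RPM, reads per 1000000 distinct reads, so that 1 read was worth 0.235 RPM in stimulated Th2 and 0.746 RPM in resting Th2. The resting library set the resolution: a count of 0 allowed up to 2.24 RPM there, against 0.704 RPM in stimulated Th2.

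With both libraries thinned to 1340208 distinct reads, more BRG1 regions were called in stimulated Th2, 10868, than in resting Th2, 8546. The order depended on the repeated reads: with these kept, 21014 regions were called in stimulated and 30306 in resting Th2. Merged with the regions of the other 4 BRG1 libraries, they formed 26315 regions. Of these, 7465 were called in stimulated Th2 and not in resting Th2, 5166 in resting Th2 and not in stimulated Th2, and 3367 in both. The shared regions made up 31.1% of the stimulated set and 39.5% of the resting set. A region called in 1 library alone need not differ between them. By the comparison given below, 2237 of 6873 compared regions of the stimulated set alone were higher, and 944 of 4339 of the resting set alone were lower. The 3367 regions called in both had the highest levels, with a median of 8.21 RPM in stimulated and 8.95 RPM in resting Th2. Regions of the stimulated set alone had a median of 4.69 RPM in stimulated and 1.49 RPM in resting Th2. Regions of the resting set alone had a median of 2.35 RPM in stimulated and 5.22 RPM in resting Th2, so they kept reads after stimulation.

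Counted with all distinct reads, 19604 regions had at least 10 reads in the Th2 pair, and 6711 did not and were not compared. A region was called where RPM differed at least 3-fold and the interval of the ratio left out 1. Stimulated Th2 was higher in 2780 regions, 14.2% of those compared, and lower in 991, 5.06%. The median ratio was 1.26 (log2 0.33). With both libraries at equal depth, 1358 of 11021 compared regions were higher (12.3%) and 554 lower (5.03%), and the median ratio was 1. When all ratios were first divided by the median of 1.26, 1716 regions came out higher and 1735 lower, a balance that the centring itself favours. Depth also set what could be called. With no resting read, at least 14 stimulated reads were needed for a call, and 48 were needed beside 5 resting reads. A lower call needed at least 10 resting reads where stimulated Th2 had none. In RPM this was the higher bar, since 1 read was worth 0.235 RPM in stimulated and 0.746 RPM in resting Th2. Where the other library had no read, weaker levels could thus be called higher than could be called lower. Of the higher regions, 1307 had no read in resting Th2, and 2 of the lower regions had none in stimulated Th2.

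**Figure D1:**
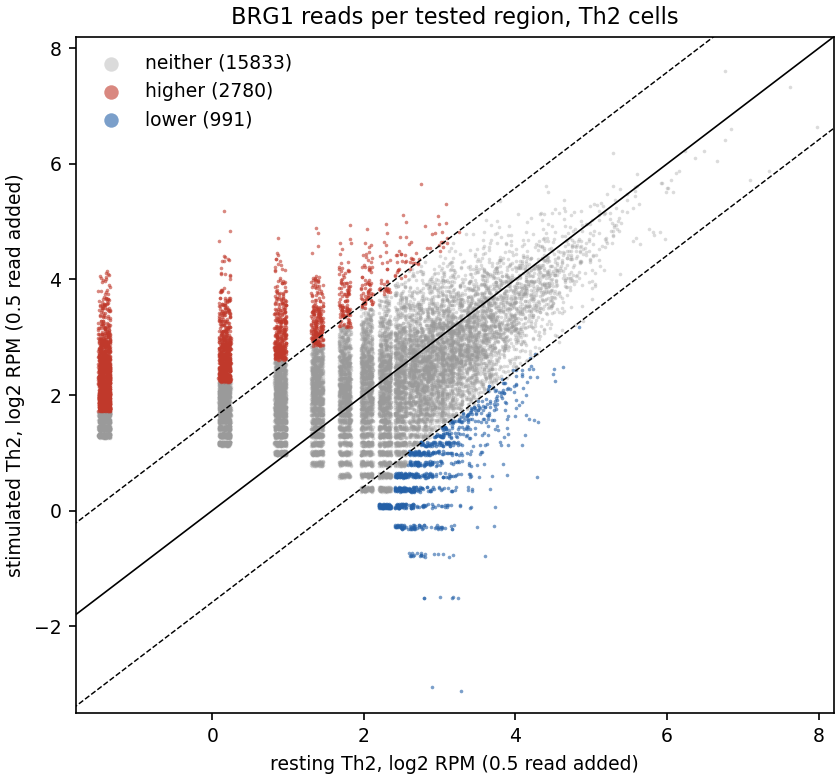
BRG1 level of each of the 19604 compared regions in stimulated Th2 (vertical) against resting Th2 (horizontal), both as log2 RPM with 0.5 read added and a small random offset for display; the solid line marks equal levels and the dashed lines a 3-fold difference. The 2780 higher regions crowd at low resting counts, including the leftmost column of 1307 with no resting read, while the 991 lower regions keep some stimulated reads in all but 2 cases.

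Regions called in both states were chosen for reads in both libraries, which limits how far their ratios can lie from 1. Of the 3367 regions called in both Th2 libraries, 51 were called different, 15 higher and 36 lower, which is 1.51%. Their ratios of stimulated to resting Th2 ran from 0.535 at the 10th percentile to 1.45 at the 90th, with a median of 0.858. A region at chr1:46910201-46910800 shows this class: it had 412 reads in stimulated and 153 in resting Th2, or 96.7 against 114 RPM. The input had 6.23 RPM there, so both Th2 libraries stood far above it. At chr17:57170801-57171800 the levels were 84.7 RPM in stimulated and 104 RPM in resting Th2, and at chr11:96838601-96839400 they were 74.6 RPM in stimulated and 78.3 RPM in resting Th2. These regions were named for having the highest level in the weaker of the 2 libraries, a choice made after the values were seen. The top 2 by that measure, on chromosomes 11 (3093001 to 3094200) and X (166434801 to 166436400), also held 50.7 and 56.1 RPM in the input.

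The 2 directions differed in what lay beneath them. In the 2780 higher regions, pooled BRG1 density was 8.16 times the input in stimulated Th2 (7.98 to 8.34) and 0.987 times in resting Th2 (0.948 to 1.03). In the 991 lower regions it was 3.57 times the input in stimulated Th2 (3.39 to 3.77) and 15.8 times in resting Th2 (15.0 to 16.6). These Th2 values chose the regions, which pushes the low side down and the high side up, and they are given as a description. Another set of 684 higher regions, described below, was called anew and chosen with part of the reads. In the reads that had not chosen them, resting Th2 stood at 1.64 times the input (1.51 to 1.77). That set is not the 2780 regions above, so its value does not correct their 0.987.

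**Figure D2:**
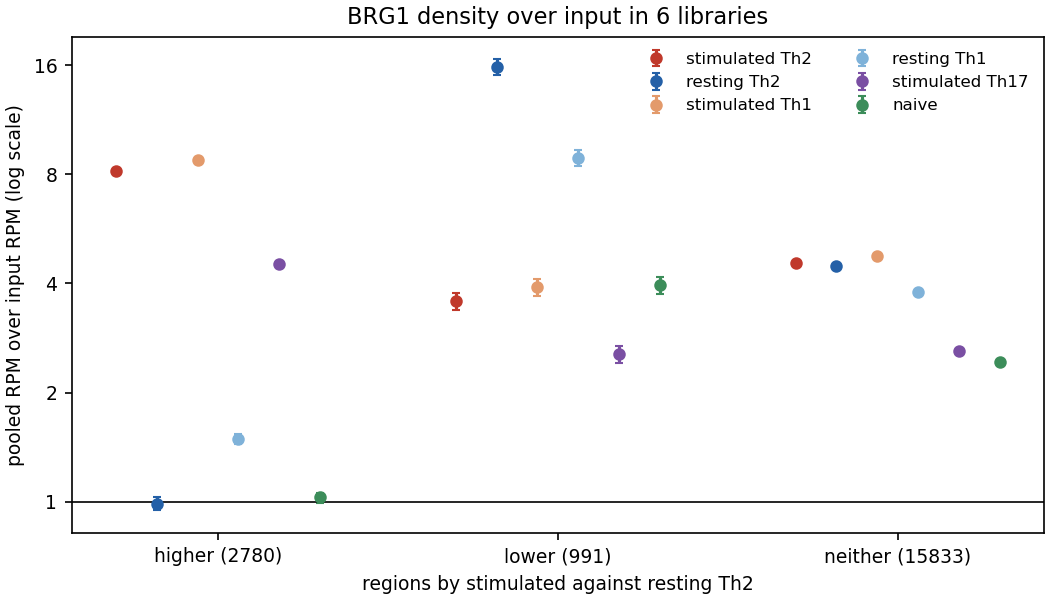
Pooled RPM over pooled input RPM (log scale) in regions higher, lower or neither in stimulated against resting Th2, for 6 BRG1 libraries; bars are 95% intervals for counting error. In higher regions stimulated Th2, Th1 and Th17 stand at 8.16, 8.74 and 4.52 while resting Th2 and naive stand at 0.987 and 1.03; in lower regions every library stands above 1.

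Libraries that took no part in the Th2 calls showed the same split between states. Their shares of repeated reads, given below, also split by state, so the 2 cannot be told apart. In the higher regions, density over input was 8.74 in stimulated Th1 and 4.52 in stimulated Th17, against 1.49 in resting Th1 and 1.03 in naive. In the lower regions it was 3.90 in stimulated Th1 and 2.55 in stimulated Th17, against 8.86 in resting Th1 and 3.95 in naive, so that naive and stimulated Th1 lay close together there. Over all compared regions the 2 stimulated libraries stood at 5.19 (Th1) and 2.83 (Th17), the unstimulated ones at 3.64 (Th1) and 2.30 (naive). The union of regions was built from all 6 libraries, so these libraries helped to define where regions lie. They did not set the direction of a Th2 call. Of the 2780 higher regions, 528 were called in neither Th2 library and entered through another library. A high level in some other library is thus built into those 528.

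How far such a choice inflates differences was seen by splitting each library at random, an addition made after the data were examined. Regions were called and chosen with 50% of the reads and measured with the other 50%. They were called anew at 50% of the depth, so the values do not measure the inflation in the 2780 and 991 reported regions. In the 684 regions chosen as higher, the ratio of stimulated to resting Th2 was 11.4 in the choosing reads and 4.31 (4.04 to 4.59) in the other reads. In those other reads stimulated Th2 was the higher library in 657 of the 684 regions (96.1%), against 58% of regions chosen in neither direction. The stimulated library stood at 7.05 times the input there (6.70 to 7.42), and the resting library at 1.64 times (1.51 to 1.77). In the 337 regions chosen as lower, the ratio was 0.233 in the choosing reads and 0.558 (0.525 to 0.592) in the others. Resting Th2 was the higher library in those others in 249 regions (73.9%), against 42% of regions chosen in neither direction. Both directions held in reads that had not chosen them, and both were smaller there. The 2 sets of reads came from the same libraries, so a difference between libraries is in both and is not checked by the split.

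**Figure D3:**
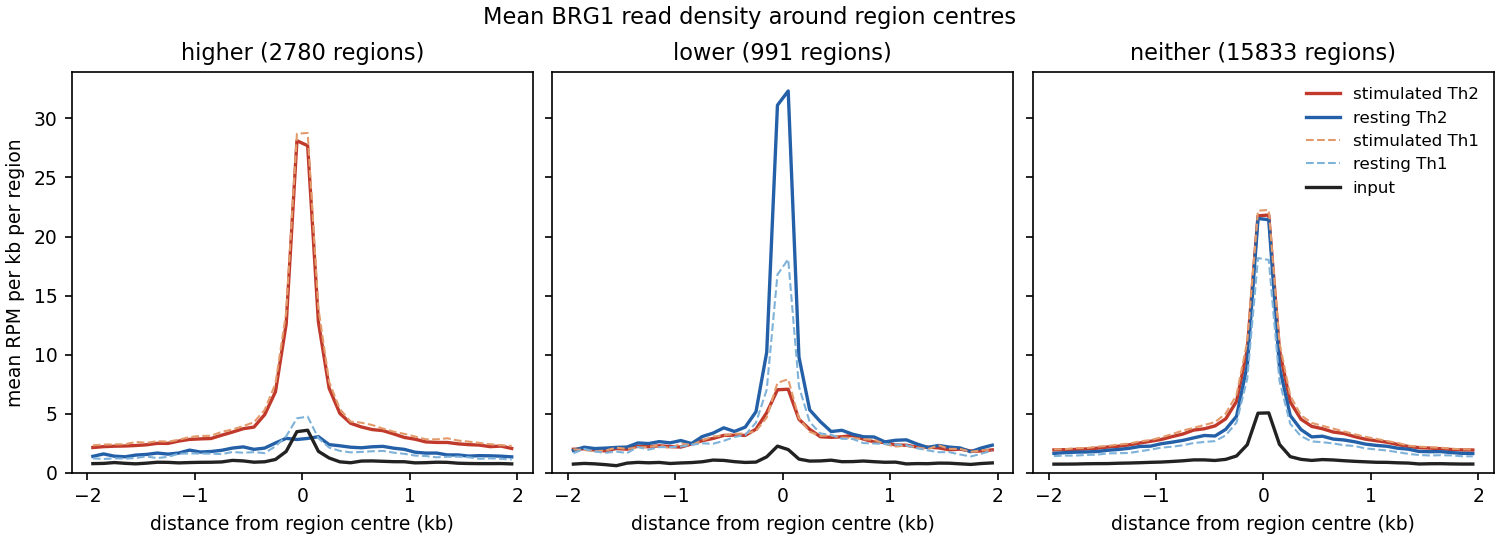
Mean BRG1 density (RPM per kb per region, bins of 100 bp) against distance from the region centre for higher, lower and neither regions in stimulated Th2, resting Th2, stimulated Th1, resting Th1 and input. Stimulated Th2 peaks at 27.9 in the centre of higher regions. Resting Th2 has 2.87 there, 2 times its flank and below the 3.55 of the input. In lower regions stimulated Th2 keeps a peak of 7.05 beside 31.7 in resting Th2.

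The mean profile around region centres showed a peak in both directions. In higher regions stimulated Th2 had 27.9 RPM per kb in the central 200 bp, 12.4 times its level at more than 1500 bp from the centre. Resting Th2 had 2.87 RPM per kb in the centre, 2 times its own flank. The input itself was peaked there, at 3.55 RPM per kb and 4.48 times its flank. It was peaked in the other classes too, at 6.7 times its flank in regions of neither direction and 2.81 times in lower regions. The low resting centre follows in part from the choice of these regions. The naive library, which did not choose them, had 3.21 RPM per kb and 3.24 times its flank. In lower regions stimulated Th2 had 7.05 RPM per kb in the centre, 3.63 times its flank, and resting Th2 had 31.7. In regions called in neither direction the centre held 21.8 RPM per kb in stimulated and 21.5 in resting Th2.

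Higher regions were chosen for few resting reads, so low resting levels are built into them, and the values of this paragraph are a description. Resting Th2 lay below the input level in 55.2% of higher regions, against 7.31% of regions in neither direction. The higher regions were divided by this measure. In the 1307 without resting reads, the mean level was 5.21 RPM in stimulated Th2 and 0.585 RPM in input. In 565 regions, 20.3% of the higher ones, resting Th2 stood at 2 times the input or more. These had a mean of 9.95 RPM in stimulated and 2.16 RPM in resting Th2, a pooled ratio of 4.61, and the pooled ratio in Th1 was 5.15. The resting level is the denominator of the fold, and a call beside more resting reads needs more stimulated reads, so neither value is independent of the division. The part that these low resting levels had in the higher calls was not tested. With only regions that had a resting read, 1473 of 17455 were higher (8.44%) and 991 lower (5.68%).

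The most clearly higher region, ranked by the lower end of its interval, lay at chr12:114035201-114036600. It held 158 reads in stimulated and 1 in resting Th2, or 37.1 against 0.746 RPM, a ratio of 49.7 (8.79 to 1975). The other stimulated libraries were high there too, with 66.6 RPM in Th1 and 25.2 RPM in Th17, whereas resting Th1 had 2.77, naive 0.965 and input 3.68 RPM. A region at chr11:119852601-119853000 had 105 reads in stimulated Th2 against 1 in resting Th2, a ratio of 33.0 (5.80 to 1316). In both regions resting Th2 was below the input. At chr9:96550401-96550800 the input was low, and 70 reads in stimulated Th2 stood against 0 in resting Th2, at least 7.34-fold higher against a floor of 3 resting reads (exact lower bound 5.81). Stimulated Th1 had 111 reads there, resting Th1 4 and the input 1. At chr7:134959401-134960000 stimulated cells had 72 (Th2) and 94 (Th1) reads and resting cells 0 in both subsets, beside 1 read in naive and 5 in input, so all 3 unstimulated libraries were at or next to 0. A region at chr14:62299801-62300600 differed in this respect, with 73 reads in stimulated Th2 and 0 in resting Th2, while resting Th1 had 9 reads, naive 6 and input 8. The 12 highest regions had 67 to 158 reads in stimulated Th2 and 0 or 1 in resting Th2, and all 12 were also called higher in stimulated against resting Th1.

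Regions with resting Th2 at 2 times the input or more were ranked in the same way among the 565 given above, a choice made after the values were seen. Of the 8 ranked highest, 4 had 1 resting read and intervals about as wide as those above, such as 18.6 (3.20 to 745) at chr13:113108401-113109000. The other 4 had 2 to 5 resting reads. At chr2:31101801-31102400 123 reads in stimulated Th2 stood against 5 in resting Th2, or 28.9 against 3.73 RPM, a ratio of 7.74 (3.23 to 24.2). Stimulated Th1 had 159 reads there, resting Th1 3 and the input 5. At chr7:54365801-54366800 the counts were 105 in stimulated and 4 in resting Th2, a ratio of 8.25 (3.13 to 30.9). Stimulated Th1 had 94 reads there, resting Th1 5 and the input 1, the same order as in Th2. At chr11:97014201-97014600 80 reads in stimulated and 2 in resting Th2 gave a ratio of 12.6 (3.37 to 106), with 85 in stimulated Th1, 3 in resting Th1 and 2 in input. In all 8 regions ranked this way stimulated Th1 was called higher than resting Th1 as well.

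**Figure D4:**
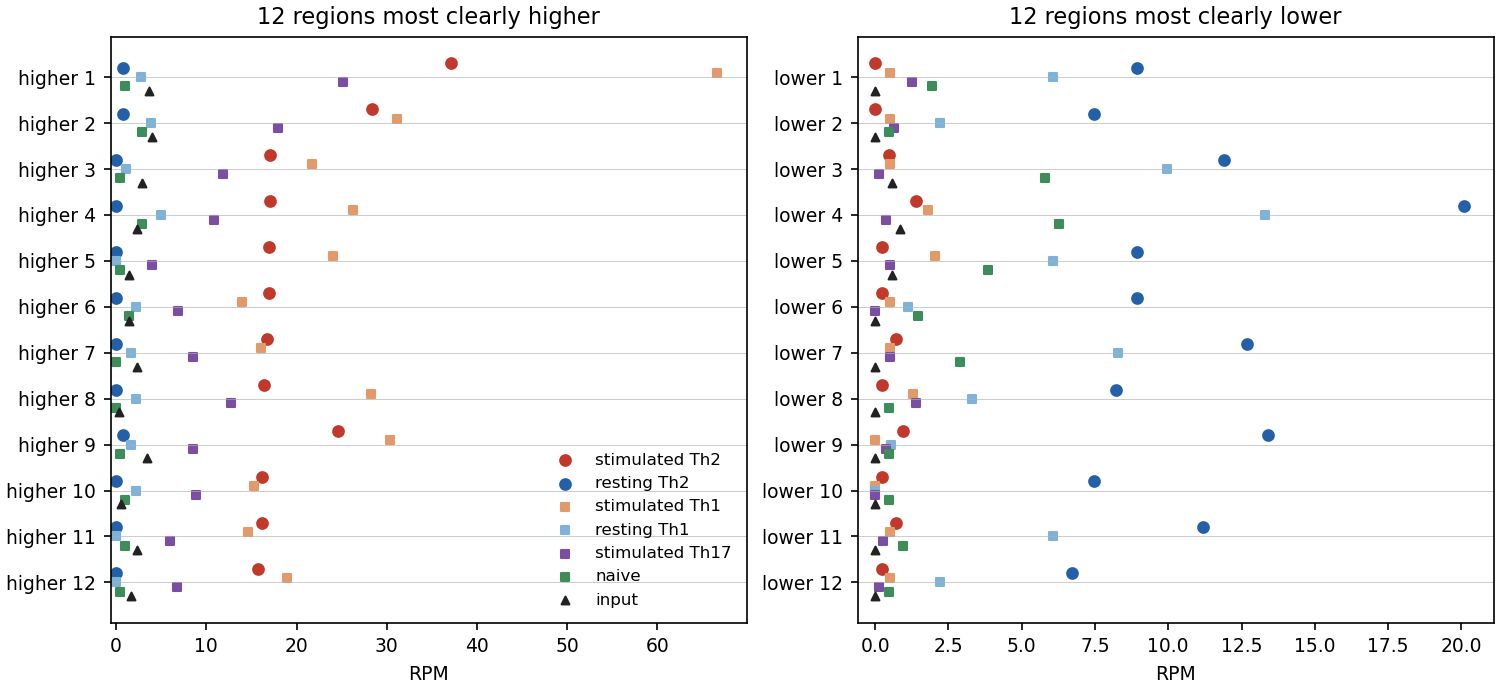
BRG1 level (RPM) in the 12 regions most clearly higher (left) and the 12 most clearly lower (right) in stimulated against resting Th2, in each of the 7 libraries; large circles are the Th2 libraries, squares the other BRG1 libraries and triangles the input. In the higher regions the 3 stimulated libraries lie to the right of resting Th2, which is at 0 or 0.746 RPM; in the lower regions stimulated Th2 lies at 1.41 RPM or less and resting Th2 between 6.72 and 20.1 RPM.

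Lower regions had fewer reads behind them. At chr6:71870801-71871200 2 reads in stimulated stood against 16 in resting Th2, or 0.469 RPM in stimulated and 11.9 RPM in resting Th2, 25.4-fold lower (5.98 to 228). Stimulated Th1 had 0.511 and stimulated Th17 0.127 RPM there, while resting Th1 had 9.96 and naive 5.79 RPM. Every unstimulated library was thus above every stimulated one. No read of stimulated Th2 but 12 of resting Th2 lay at chr2:32581001-32581200, at least 12.7-fold lower against a floor of 3 stimulated reads (exact lower bound 8.84). At chr16:87324801-87325200 stimulated Th2 held 3 reads and resting Th2 17, 18.0-fold lower (5.21 to 96.0), with 6 reads in naive and 0 in input. Stimulated Th1 held 2 and resting Th1 15, 16.3-fold lower. Other lower regions were high in resting Th2 and in no other library. A region at chr1:132640401-132640800 held 4 reads in stimulated and 18 in resting Th2, with 0 and 1 in stimulated and resting Th1, 1 in naive and 0 in input. At chr3:20143801-20144200 1 read in stimulated stood against 10 in resting Th2, and both Th1 libraries and the input had 0. The 12 most clearly lower regions had 0 to 6 stimulated and 9 to 27 resting reads, and 5 of them were also called lower in Th1. Another 5 had under 10 reads in the Th1 pair and were not compared there.

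Higher regions formed clusters of 5 or more, and lower regions did not. With gaps of up to 50 kb allowed, 21 clusters of 5 to 8 higher regions were found on 13 chromosomes, with 117 regions in all, and no cluster of 5 lower regions was found. There were 2780 higher and 991 lower regions, so clusters of a given size are easier to form among the higher ones. The cluster with the most higher regions, at chr11:78844601-78959400, held 8 higher regions among 10 compared over 115 kb. Its whole span held 290 RPM in stimulated and 94.8 RPM in resting Th2, a ratio of 3.06 (2.55 to 3.70), with 88.3 RPM in input. A cluster at chr12:87044201-87087000 had the largest ratio over a whole span, 4.83 (3.36 to 7.19). Resting Th2 had 23.1 RPM there and the input 35.7 RPM. At chr2:30563401-30579200 the span held 101 RPM in stimulated and 23.9 RPM in resting Th2, a ratio of 4.24 (2.96 to 6.27). At chr2:168350401-168430600 7 of 14 compared regions were higher and 1 lower, and the span ratio was 1.70 (1.48 to 1.95). Over all 21 spans the ratio ran from 1.65 to 4.83 in Th2 and from 1.78 to 5.12 in Th1. Clusters were chosen for their higher regions, which raises the Th2 ratios. Resting Th2 lay below the input over the whole span in 2 of the 21.

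Position along the genome gave smaller contrasts. On the autosomes the share of higher regions ran from 11.5% on chromosome 17 to 16.5% on chromosome 8. On chromosome X it was 5.7% (15 of 263 regions, exact interval 3.23 to 9.23 with regions taken as independent), and 6.08% were lower. Chromosome X held 2.9% of the reads of stimulated Th2, 3.7% of resting Th2 and 4.21% of input. The other BRG1 libraries divided by state as well, with 2.67% in stimulated Th1 and 2.2% in stimulated Th17. Resting Th1 had 3.95% and naive 4.43%. The part of this in the share of higher regions on chromosome X was not tested. Of the higher regions with another compared region within 10 kb, 21.2% had a higher nearest neighbour and 3.61% a lower one. For regions in neither direction these shares were 13.5% and 5.14%. Of the lower regions, 9.58% had a lower nearest neighbour and 10.7% a higher one. Distance to sites occupied at rest differed little: 25.4% of the higher regions not called at rest had a resting region within 10 kb, against 29.9% of regions in neither direction and not called at rest.

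Most regions higher in Th2 were higher in Th1 as well, in a comparison that shares no BRG1 library with that of Th2. The region set is shared, since it was built from all 6 BRG1 libraries, those of Th1 included. Of the 2780 regions higher in Th2, 528 were called in neither Th2 library and entered the set through another library. Th1 stimulation gave 4605 higher (24.3%) and 887 lower (4.67%) regions among 18984. Of the Th2 higher regions with enough Th1 reads, 76.2% (1904 of 2499) were higher in Th1, which is 47.4% of the 4015 regions higher in Th1 and compared in Th2. Of the lower ones 31.7% (196 of 618) were lower in Th1, which is 36.2% of the 542 in Th1. Over the 16590 regions compared in both subsets, the ratio in Th2 was at least 3-fold that in Th1, with the interval leaving out 1, in 0.687%. It was at most 1/3 of that in Th1 in 3.15%. The median quotient was 0.8, so the stimulation ratio tended to be smaller in Th2. In the span of each cluster described above the Th1 ratio was the larger in 19 of 21, and its interval lay wholly above that of Th2 in 5.

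**Figure D5:**
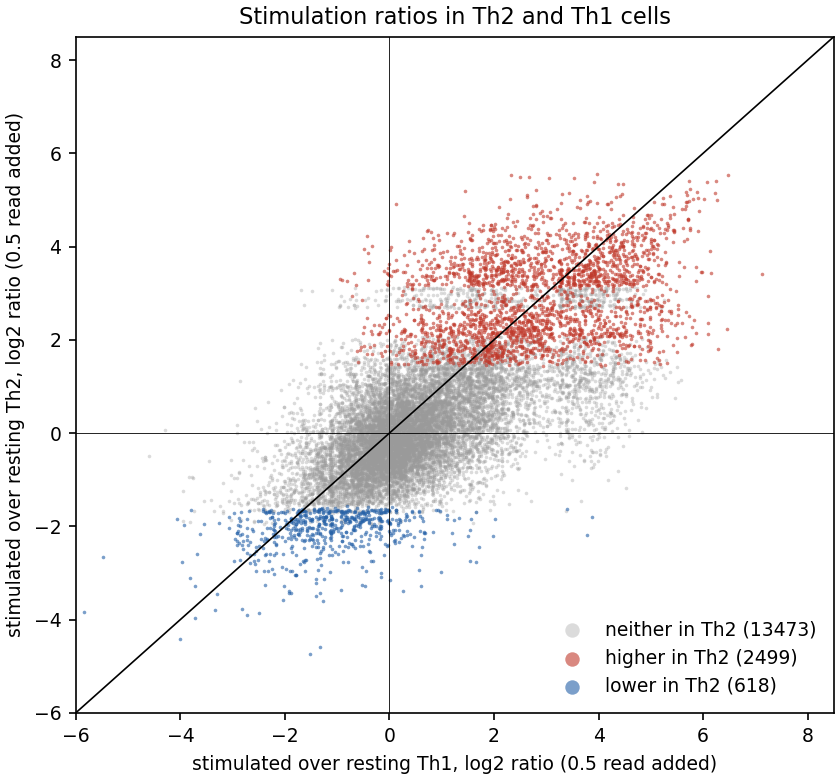
Log2 ratio of stimulated to resting cells in Th2 (vertical) against Th1 (horizontal), with 0.5 read added to each count and a small random offset, for the 16590 regions compared in both subsets; the diagonal marks equal ratios. Without the added read and offset, the Th1 ratio was above 1 in 2458 of the 2499 regions higher in Th2 (98.4%). It was above 1 in 90 of the 618 lower regions (14.6%) and in 11192 of all 16590 (67.5%).

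A minority of the Th2 calls stood apart from Th1. Of the 2499 higher regions compared in Th1, 29 had a Th2 ratio at least 3-fold that of Th1, against 114 of all 16590 regions compared in both. Of the 618 lower regions, 100 had one at most 1/3 of it, against 522 of the 16590. In each case the interval left out 1. These regions were chosen by their Th2 ratio, which pushes the quotient away from 1 in the same direction. At chr10:44152001-44152400 the Th2 counts were 60 after stimulation and 2 at rest, or 14.1 against 1.49 RPM, while stimulated Th1 had 8 and resting Th1 6. The quotient of the ratios was 12.6 (2.48 to 64.1). Stimulated Th17 had 61 reads there, naive 0 and input 1, so stimulated Th2 and Th17 were high and both Th1 libraries low. At chr9:106794201-106794600 both stimulated libraries had 90 reads, and resting Th2 had 5 against 45 in resting Th1, a quotient of 5.64 (2.22 to 14.3). In that second region the subsets differed at rest. Among the 12 regions ranked by this quotient, resting Th2 had 0 to 5 reads and resting Th1 6 to 45. At chr11:68012601-68013000 both stimulated libraries had 68 reads, with 3 in resting Th2 and 22 in resting Th1, a quotient of 4.38 (1.35 to 14.2). Of the lower regions, one at chr1:182156601-182156800 had 4 reads in stimulated and 14 in resting Th2, against 11 in stimulated and 4 in resting Th1, a quotient of 0.0827 (0.0181 to 0.378). At chr16:16871001-16871200 stimulated cells had 5 (Th2) and 10 (Th1) reads and resting cells 11 (Th2) and 1 (Th1), a quotient of 0.0466 (0.00636 to 0.340). With 1 library a side, none of these differences between subsets has a replicate check.

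Reads that repeated a position, which the counts leave out, were distributed differently in the 2 states. They made up 11.8% of the stimulated Th2 reads and 36.6% of the resting Th2 reads. The other BRG1 libraries divided by state as well. The share was 11.4% in stimulated Th1 and 10.2% in stimulated Th17, against 28.5% in resting Th1 and 41.4% in naive. State and this property of the libraries run together, so they cannot be told apart here. Of the repeated reads, 49.1% lay in regions in stimulated Th2, against 14.5% in resting Th2 and 21% in input. It was 45.3% in stimulated Th1 and 37% in stimulated Th17, against 15.7% in resting Th1 and 8.84% in naive. Of the distinct reads, 11.7% lay in regions in stimulated Th2, 10.3% in resting Th2 and 2.37% in input. With all reads kept, for calling and for counting, 8108 of 33852 compared regions were higher (24%) and 3963 lower (11.7%).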

How the data were processed

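For every library, the file deposited by the authors lists its aligned reads (chromosome, start, end and strand; 34 bases each) on mm9, per the submitters' processing notes. The lists hold no count or signal of the authors. The aligner and any filter it applied were not given in the sources used here. Per the labels' protocols, chromatin was fixed with formaldehyde, cut with MNase and by sonication, precipitated with the J1 antibody to BRG1, amplified over 18 PCR cycles and size-selected at 250 to 300 bases.

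From these reads, 1 read was kept per chromosome, 5′ end and strand, chromosome Y was left out and 5′ ends were shifted by 75 bp. Windows of 200 bp were called where the Poisson tail was below 1e-05, with as expectation the genome mean or, where higher, the scaled input in the surrounding 1, 5 or 10 kb, in libraries thinned to equal depth, and joined over gaps of up to 1 window. Ratios carry conditional exact (Clopper-Pearson) intervals. The quotient of 2 ratios carries a log-normal interval with 0.5 added to each count. Regions were named by rank: the 12 highest and 12 lowest by the interval bound nearest 1, the 12 of each direction that differed most from Th1, and clusters of at least 5. The members, rules and lists were chosen with earlier results of these data known. Classes by input, width, neighbour and distance, and the regions strongest in both states or above the input at rest, were chosen after the data were examined. Window calling and the rule for the Th2 ratio were checked on simulated data. Quotients against Th1, rankings, clusters and these classes were not checked in that way. Gene lists and sequence motifs were planned, but not used, because no mm9 annotation or genome was used here. Python 3.11.15, numpy 2.4.6, pandas 2.3.3, scipy 1.17.1 and matplotlib 3.10.9 were used.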

Additional observations from a re-analysis of the deposited data

Results flagged for a closer look

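In 4 regions the call after stimulation had opposite directions, lower in Th2 and higher in Th1. The difference was not tested, because each group has 1 library. At chr4:88862801-88863000 stimulated cells had 4 (Th2) and 14 (Th1) reads and resting cells 6 (Th2) and 0 (Th1), a quotient of the ratios of 0.0163 (0.000759 to 0.349). At chr6:15671201-15671400 there were 8 and 15 reads in stimulated Th2 and Th1, and 9 and 0 in resting Th2 and Th1, a quotient of 0.0197. A second region at chr6:108618401-108618600 had 6 and 21 reads in stimulated Th2 and Th1, and 9 and 2 in resting Th2 and Th1, a quotient of 0.0542. At chr19:29260201-29260600 stimulated Th2 and Th1 had 11 reads each, resting Th2 11 and resting Th1 0, a quotient of 0.0296. All 4 rest on at most 11 resting reads, and each lost its Th2 call under at least 1 alternative. With regions of 1000 bp no call was left in any of them, and the Th2 ratios were 0.359, 1, 0.484 and 0.377 in the order given.

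Of the repeated reads, which the reported comparisons leave out, 49.1% lay in regions in stimulated Th2, above the 21% in input, and 14.5% did in resting Th2, below the input. The other BRG1 libraries divided in the same way, with 45.3% in stimulated Th1 and 37% in stimulated Th17. Resting Th1 had 15.7% and naive 8.84%.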

How the results depend on the processing

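The 57 regions named for a difference kept their direction under the 7 alternatives that gave them a value (56 of them without the shift), except chr6:15671201-15671400, whose ratio became 1 with regions of 1000 bp. The call was lost, with the direction kept, by 14 on the other 50% of reads, 13 at 1000 bp, 7 at equal depth, 6 without the shift, 3 on the median scale, 2 with repeated reads and 1 on the bin scale. All of these were regions named for their difference from Th1, among them chr9:106794201-106794600 (2.94) and chr16:16871001-16871200 (0.443) at 1000 bp. The 5 regions strongest in both states were not recomputed. The count of higher regions exceeded that of lower regions in every setting but division by the median ratio (1716 higher, 1735 lower). Counts that moved by over 1.5 times, and median ratios other than 1.26, were as follows. With Th2 thinned to equal depth, 1358 of 11021 compared regions were higher (12.3%) and 554 lower (5.03%), with a median ratio of 1. With repeated reads kept, 21014 regions were called in stimulated and 30306 in resting Th2, a reversed order. Of 33852 compared there, 8108 were higher (24%) and 3963 lower (11.7%), with a median ratio of 1.37 and 794 differing from Th1. That last number was 129 in the reported setting. With at least 20 reads, 276 of 11641 were lower (2.37%), 45 differed from Th1 and the median ratio was 1.2. Under the 2-fold rule 220 differed from Th1. Dividing by the ratio in bins without regions, 0.922, gave a median ratio of 1.36, and regions of the Th2 libraries alone gave 1.09. Calling on 50% of reads and counting the other 50% gave 4345 and 3620 regions in stimulated and resting Th2. Of 6670 compared there, 636 were higher (9.54%), 162 lower (2.43%) and 33 differed from Th1. With both libraries at 0.5 times the input or more, 1595 of 17794 were higher (8.96%) and the median ratio was 1.12. Calling on all distinct reads, chosen after the data were examined like the next setting, gave 31648 regions in stimulated Th2. Of 33123 compared there, 4573 were higher (13.8%), with a median ratio of 1.51. With only regions that had a resting read, 1473 of 17455 were higher (8.44%) and the median ratio was 1.1. Where not evident from the setting, the cause was not tested. No paired analysis was possible because each group has 1 library. Gene lists and motifs were not run.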

Other observations

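Wider regions were more often higher in stimulated Th2. The share was 12% of 14346 regions of 1 window of 200 bp, 19.8% of 4803 regions of 2 to 3 windows and 23.7% of 455 regions of 4 or more. The lower shares were 5.15%, 5.1% and 1.54% in the same order. Wider regions also held more reads, with medians of 19, 41 and 81 over both Th2 libraries, so width and depth cannot be told apart.

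The share of lower regions was smaller where the input was higher. It was 9.24% among 3237 regions without an input read and 0.812% among 3079 regions with 8 input reads or more. The higher share was 11% and 7.96% in these classes and at most 17.5% between them.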
